A study of Mus musculus with 22 samples.

Results

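Targets of the transcription factor p53 respond to DNA damage and other stress, and the 10 such genes described here, Mdm2, Ccng1, Gadd45a, Trp53inp1, Phlda3, Sesn2, Bbc3, Bax, Btg2 and Plk2, were taken by symbol from a table of 57010 genes measured in mouse pancreatic islets. Each symbol stood on 1 row of the table, and all 10 were among the 16756 genes that reached a TPM of 1 in 5 or more libraries. TPM, a measure of transcript abundance scaled to the same total in every library, is the share of a library's transcripts that belongs to a gene after division by gene length, so levels of different genes can be compared. The islets came from 22 male mice aged 5.5 weeks, 1 library per mouse. The mice were wild type (WT) or heterozygous (Het) for an S64F change in MAFA, which drives insulin transcription in beta cells. There were 5 WT and 6 Het mice on a background labelled C57, and 5 WT and 6 Het mice on one labelled Mixed, whose strains the labels do not give. All groups are whole islets with all their cell types, and the labels name no promoter, Cre line or treatment. Nothing says whether mice of a group shared a litter or an isolation day.

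The tumour suppressor p53 is held at a low level by the ubiquitin ligase MDM2, and DNA damage or other stress releases it to activate genes with p53 response elements near their starts or in their first introns. Its targets act in different directions. Some feed back on p53 (Mdm2, Ccng1), and some act in the cell cycle (Gadd45a, Btg2, Plk2). Some adjust metabolism and autophagy (Sesn2, Trp53inp1), and some promote death or restrain survival signalling (Bbc3, Bax, Phlda3). Several of the 10 targets are also known to be induced without p53, for example Sesn2 by ATF4 and Btg2 and Plk2 by growth factors.

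A p53 response element is made of a pair of copies of a short consensus decamer, whose consensus is its own reverse complement, so that a search covers both strands. RefSeq promoter sequences (GRCm38.p6) were found for 9 of the 10 genes, in 11 entries, and the 250 bases before each start site were searched. The submitters' processing notes name mm39, so these coordinates belong to the RefSeq table alone. A decamer matching the consensus lay in 4 of the 11 windows, those of Ccng1, Gadd45a, Mdm2 and Bax, against 7.13% of all 32851 promoter windows of that length, and a pair of decamers at most 13 bases apart lay in 0 of the 11 windows, against 0.0639% of all. Those 4 windows are printed because they belong to genes that did different things in Het islets: Ccng1 and Gadd45a rose, Bax fell in C57, and Mdm2 did not pass the test. Each runs 5′ to 3′ on the gene's strand, and the capitals mark the decamer. The Ccng1 window is chr11:40755287-40755536 (minus strand), with the decamer starting 185 bases before the start site. The Gadd45a window is chr6:67037408-67037657 (minus strand), with the decamer at 40 bases. The Mdm2 window is chr10:117710759-117711008 (minus strand), with the decamer at 186 bases, and the Bax window is chr7:45466899-45467148 (minus strand), with the decamer at 201 bases.
Ccng1: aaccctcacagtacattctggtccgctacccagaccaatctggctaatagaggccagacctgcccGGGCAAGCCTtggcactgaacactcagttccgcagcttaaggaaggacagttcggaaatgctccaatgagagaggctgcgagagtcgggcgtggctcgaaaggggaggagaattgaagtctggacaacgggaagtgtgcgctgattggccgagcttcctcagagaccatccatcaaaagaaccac
Gadd45a: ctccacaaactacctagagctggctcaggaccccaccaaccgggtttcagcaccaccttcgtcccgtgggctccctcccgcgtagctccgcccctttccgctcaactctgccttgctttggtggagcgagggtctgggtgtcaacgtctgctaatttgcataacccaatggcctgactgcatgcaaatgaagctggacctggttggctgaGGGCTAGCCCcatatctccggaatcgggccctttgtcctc
Mdm2: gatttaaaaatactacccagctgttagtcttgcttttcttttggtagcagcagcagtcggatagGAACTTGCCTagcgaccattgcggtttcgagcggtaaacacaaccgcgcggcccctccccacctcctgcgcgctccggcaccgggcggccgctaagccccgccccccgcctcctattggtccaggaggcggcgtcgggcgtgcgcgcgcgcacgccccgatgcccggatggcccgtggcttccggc
Bax: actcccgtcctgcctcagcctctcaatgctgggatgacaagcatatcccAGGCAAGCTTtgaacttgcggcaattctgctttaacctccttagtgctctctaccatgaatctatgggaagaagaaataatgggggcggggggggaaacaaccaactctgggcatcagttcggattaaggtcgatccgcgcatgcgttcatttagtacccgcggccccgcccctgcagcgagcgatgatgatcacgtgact
A match of letters is a description and not a bound site. The windows of Btg2, Phlda3, Sesn2, Bbc3 and Plk2 held no match, which says only that the letters are not in these 250 bases.

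Mafa (ENSMUSG00000047591), the changed gene, averaged 441 ± 87.6 TPM (SD, n = 5) in WT against 117 ± 23.2 TPM (n = 6) in Het islets on C57, and 598 ± 143 against 152 ± 37.1 TPM on Mixed, with no overlap between genotypes. S64F is a protein change, so this level is a description and not a check of the genotype labels. The insulin genes Ins1 and Ins2 took between 34.6% and 41.7% of TPM in C57 WT and between 28.5% and 34.5% in C57 Het. In Mixed they took between 36.4% and 44.2% in WT and between 21.5% and 30.8% in Het, so the genotypes did not overlap on either background. Mitochondrially encoded genes took between 2.80% and 6.03% of TPM in 19 libraries and between 8.09% and 9.76% in the other 3, which were C57 WT replicates 1 and 5 and Mixed WT replicate 4. Results that rest on these WT libraries are given with and without them. By genotype, the mitochondrial share ran from 4.27% to 9.76% in C57 WT and from 3.86% to 4.39% in C57 Het. In Mixed it ran from 4.37% to 9.76% in WT and from 2.80% to 4.06% in Het, without overlap. With the share as a covariate, a smaller genotype difference therefore cannot be told apart from removal of part of the genotype effect. In whole islets a lower level per cell cannot be told apart from fewer cells of a type, and the part of the lower insulin share in the results below was not tested.

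In Het islets the 10 genes did not move as one group. On the C57 background 6 of 10 were called, 3 higher (Ccng1, Gadd45a, Sesn2) and 3 lower (Bbc3, Bax, Plk2), where called means an adjusted p under 0.05 in limma over all 16756 genes. On that background 38.0% of all genes were called, 26.4% higher and 11.6% lower. On the Mixed background 6 of 10 were called, 4 higher (Ccng1, Gadd45a, Sesn2, Phlda3) and 2 lower (Bbc3, Btg2), against 44.1% of all genes, 30.7% higher and 13.5% lower. Called in both backgrounds were 4 genes, each in 1 direction: Ccng1, Gadd45a and Sesn2 higher, and Bbc3 lower. The median log2 difference of the 10 was 0.14 in C57 and -0.06 in Mixed, against 0.08 and 0.10 over all genes tested.

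The split of all calls into higher and lower depended on how libraries were scaled. As deposited, 4422 genes were higher and 1940 lower in C57 Het, and 5137 higher and 2258 lower in Mixed Het. With median-of-ratios scaling the split was 3293 to 3300 and 3663 to 3751, and the median over all genes, 0.08 in C57 and 0.10 in Mixed as deposited, was then -0.01 on each background. The same 6 members were called in C57 under that scaling. In Mixed, Sesn2 was no longer called (log2 difference 0.26, limma adjusted p = 0.0762), while Bax (-0.26, adjusted p = 0.0478) and Mdm2 (-0.21, adjusted p = 0.0480) were called lower.

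**Figure D1:**
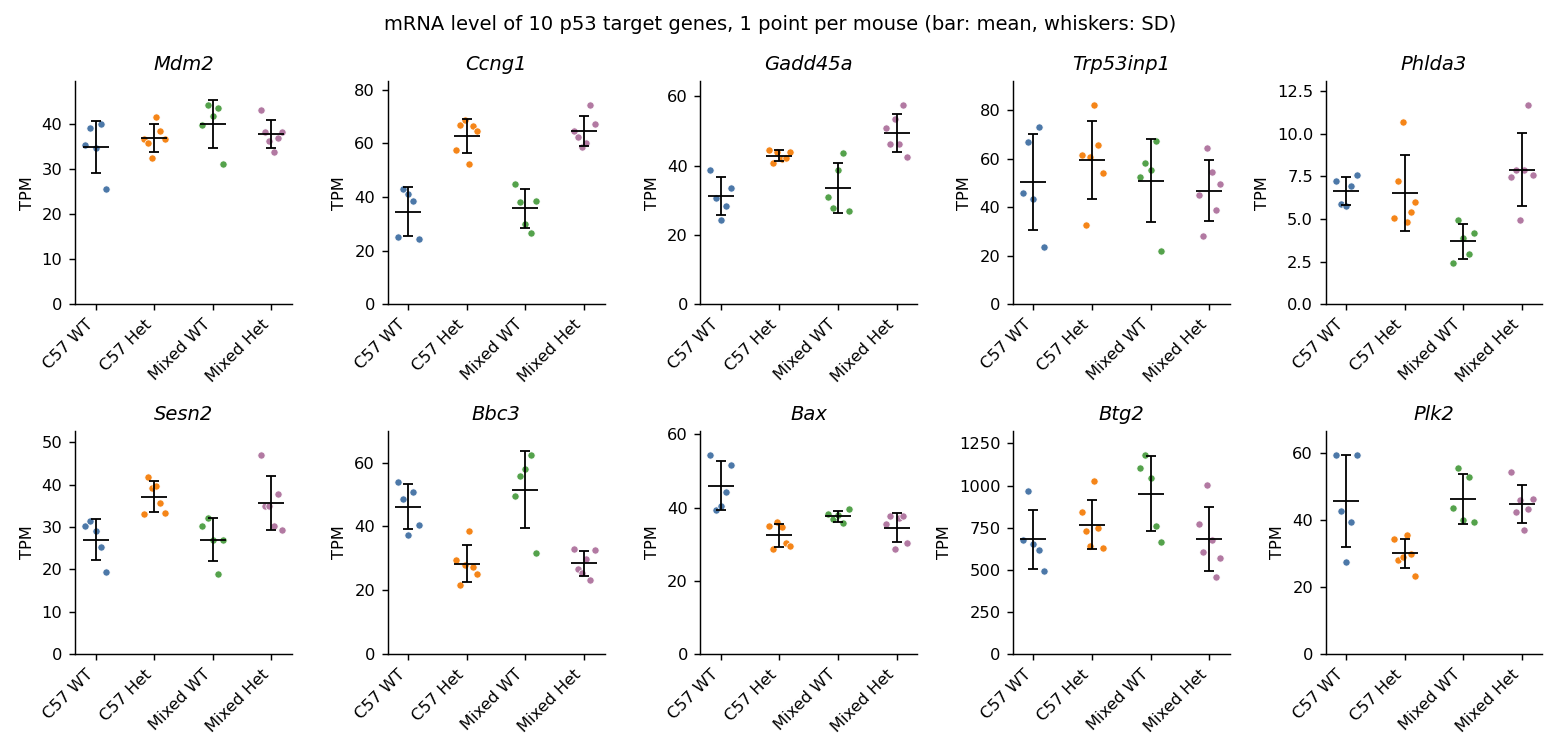
TPM of each of the 10 genes in the 4 groups, with 1 point per mouse, a bar for the mean and whiskers for the SD, on linear axes that start at 0. Ccng1 is higher in every Het mouse than in every WT mouse of its background, Bbc3 is lower in Het apart from 1 overlapping library in each background, and Btg2 is the most abundant, at 459 to 1184 TPM.

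The feedback genes behaved differently from each other. Ccng1 encodes cyclin G1, which brings the phosphatase PP2A to MDM2. Its level was 25.2, 43.1, 41.3, 38.7 and 24.2 TPM in the 5 C57 WT mice, and in the 6 C57 Het mice it ran from 52.3 to 68.8 TPM with a median of 65.6 TPM. All C57 Het mice lay above all C57 WT mice. In Mixed it was 44.97, 38.3, 30.1, 26.7 and 38.6 TPM in WT, and in Het from 58.7 to 74.4 TPM with a median of 63.6 TPM, again without overlap. The ratio of group means, Het over WT, was 1.82 in C57 and 1.81 in Mixed. Measured as log2(TPM + 1), the C57 difference was 0.88 (SE 0.14) with a limma adjusted p of 9.69e-05. The Mixed one was 0.86 (SE 0.14) with an adjusted p of 6.79e-05. Both had an exact two-sided permutation p of 0.00216, the lowest value possible with 462 splits. Non-overlap by itself was common, at 21.0% of all genes in C57 and 23.6% in Mixed.

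The low Ccng1 values of WT mice included the 3 libraries with the highest mitochondrial share, which read 25.2, 24.2 and 26.7 TPM. Leaving them out, the difference was 0.60 in C57 (limma adjusted p = 0.000596) and 0.76 in Mixed (adjusted p = 6.65e-06), so both calls held and the C57 value was smaller. With the share as a covariate the Mixed difference was 0.37 and missed the threshold (adjusted p = 0.0532). Among the 10 genes Ccng1 ranked 7th by mean TPM in both WT groups and 2nd in both Het groups.

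**Figure D2:**
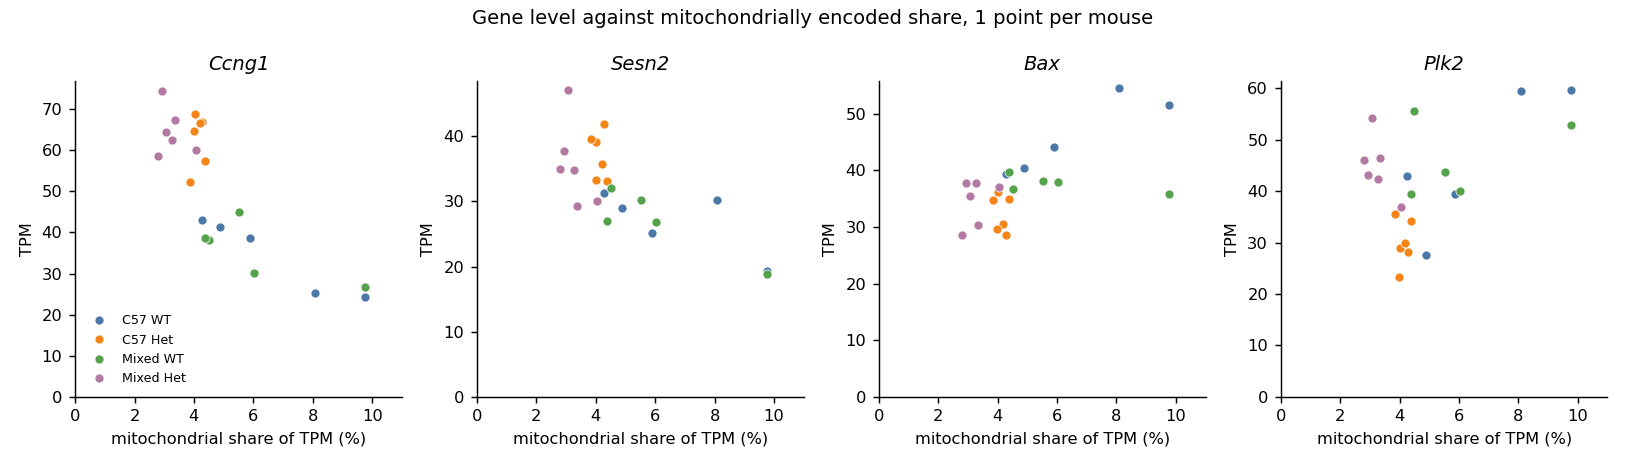
TPM of Ccng1, Sesn2, Bax and Plk2 (vertical axes from 0) against the percent of TPM from mitochondrially encoded genes (horizontal axis), 1 point per mouse coloured by group. The 3 WT libraries above 8% hold the lowest Ccng1 values, between 24.2 and 26.7 TPM, and 2 of them hold the highest Bax values, 54.5 and 51.5 TPM.

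Mdm2, which encodes the ligase that degrades p53 and is itself a p53 target, did not pass the test in either background. It was at 35.3, 39.2, 34.8, 40.1 and 25.5 TPM in C57 WT and from 32.4 to 41.5 TPM (median 36.7) in C57 Het. In Mixed WT it was at 39.8, 44.3, 41.7, 43.7 and 31.1 TPM, and in Mixed Het from 33.8 to 43.0 TPM (median 37.5). WT and Het ranges overlapped widely in both. The log2 difference was 0.09 in C57, with a 95% interval from -0.13 to 0.30 (limma adjusted p = 0.5262), and -0.08 in Mixed, with an interval from -0.29 to 0.14 (adjusted p = 0.566). These intervals bound the Mdm2 change but do not show that it was absent, and the C57 sign turned under each of the other scalings. In Mixed, Mdm2 was called lower under median-of-ratios scaling, with the values given above.

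Of the genes tied to the cell cycle, Gadd45a rose in both backgrounds. GADD45A is a small stress protein that binds PCNA and cell-cycle kinases. It was at 38.8, 30.8, 24.5, 28.3 and 33.6 TPM in C57 WT and within the narrow range of 40.8 to 44.6 TPM (median 43.0) in C57 Het. In Mixed WT it was at 30.9, 27.9, 38.7, 43.5 and 26.9 TPM, and in Mixed Het from 42.4 to 57.6 TPM (median 48.6). The C57 groups did not overlap, and in Mixed 1 WT library, replicate 4, lay above the lowest Het library. On C57 the log2 difference came to 0.46 (SE 0.12, limma adjusted p = 0.00381), on Mixed to 0.56 (SE 0.12, adjusted p = 0.000543), with two-sided exact permutation p = 0.00216 and 0.00433. Its differences were larger, at 0.61 and 0.66, without the 3 libraries of high mitochondrial share.

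Btg2, an antiproliferative gene of the BTG/TOB family, was by far the most abundant of the 10, with between 56.0% and 77.0% of their summed TPM in every library. It was at 675, 967, 656, 619 and 492 TPM in C57 WT and from 629 to 1024 TPM (median 737) in C57 Het, a log2 difference of 0.19 (limma adjusted p = 0.469) with wide overlap. In Mixed WT it was at 1103, 1184, 1044, 763 and 667 TPM, and in Mixed Het from 459 to 1002 TPM (median 642). That difference was -0.49 (SE 0.19, adjusted p = 0.0432), just inside the threshold. The ranges overlapped, the two-sided exact permutation p was 0.0584, and the call was lost on leaving out any of 7 single Mixed libraries, with adjusted p up to 0.115. The interaction, which tests whether the 2 genotype differences differ, did not pass (-0.68, SE 0.27, adjusted p = 0.122).

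Plk2, a polo-like kinase of the G1/S phase and of centriole duplication, fell in C57 Het. It was at 59.4, 42.9, 27.5, 39.5 and 59.6 TPM in C57 WT and from 23.3 to 35.6 TPM (median 29.4) in C57 Het, a ratio of means of 0.656 and a log2 difference of -0.55 (SE 0.16, limma adjusted p = 0.00929, exact permutation p = 0.0325). The 2 highest WT values were replicates 1 and 5, which have a high mitochondrial share. The C57 difference was -0.27 without the 3 such libraries and was not called (adjusted p = 0.211), nor was it with that share as a covariate (-0.34, adjusted p = 0.229). In Mixed the values were 43.7, 55.6, 40.0, 52.8 and 39.4 TPM in WT and 36.9 to 54.3 TPM (median 44.7) in Het, a difference of -0.04 (95% interval -0.37 to 0.29, adjusted p = 0.860), and the interaction did not pass (0.51, adjusted p = 0.153).

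Both Btg2 and Plk2 respond as immediate early genes in many cells, so a list of 8 immediate early genes (Fos, Fosb, Jun, Junb, Egr1, Atf3, Ier2, Nr4a1) is given beside them. Its summed TPM was between 4528 and 9835 in C57 WT, 5166 and 8030 in C57 Het, 6182 and 13360 in Mixed WT, and 4898 and 7781 in Mixed Het. In C57, 1 of the 8 was called lower (Nr4a1), against 11.6% of all genes. In Mixed 3 of the 8 were (Fosb, Junb and Nr4a1), against 13.5%. Mixed WT replicate 2 had the highest sum of all 22 libraries and also the highest Btg2 level, 1184 TPM. The part of this list in the Btg2 and Plk2 values was not tested.

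The stress and metabolism genes followed Gadd45a in one case only. Sesn2 encodes sestrin 2, a leucine sensor that restrains mTORC1 and is induced by amino acid and endoplasmic reticulum stress as well as by p53. It was at 30.2, 31.4, 29.0, 25.2 and 19.4 TPM in C57 WT and from 33.1 to 41.9 TPM (median 37.4) in C57 Het, without overlap. In Mixed WT it was at 30.3, 32.0, 26.9, 18.9 and 26.9 TPM, and in Mixed Het from 29.4 to 47.1 TPM (median 34.9), with overlap. On C57 the log2 difference came to 0.46 (SE 0.14, limma adjusted p = 0.0109), on Mixed to 0.39 (SE 0.14, adjusted p = 0.0225), with exact permutation p = 0.00216 and 0.0216. The Mixed call did not hold without Mixed WT replicate 4 (0.28, adjusted p = 0.0950) or without Mixed Het replicate 1 (0.31, adjusted p = 0.0609). The 3 libraries of high mitochondrial share included the lowest Sesn2 value of each WT group, 19.4 and 18.9 TPM, and without the 3 the differences were 0.37 (adjusted p = 0.0322) in C57 and 0.28 (adjusted p = 0.0502) in Mixed. With that share as a covariate, Sesn2 was called on neither background, at 0.17 (adjusted p = 0.418) in C57 and, with the sign turned, -0.0089 (adjusted p = 0.9747) in Mixed.

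Markers of acinar cells, the enzyme-producing cells around islets, are given beside Sesn2 and Plk2. The summed TPM of 8 acinar genes (Cpa1, Cela1, Cela3b, Pnlip, Amy2b, Ctrb1, Prss2, Cel) was between 198 and 377 in C57 WT and between 250 and 1584 in C57 Het, with 7 of the 8 called higher. In Mixed it was between 164 and 814 in WT and between 598 and 1163 in Het, with 2 of the 8 (Cela1 and Cela3b) called higher. With the mean acinar level as a covariate, Sesn2 had differences of 0.37 in C57 (limma adjusted p = 0.118) and 0.32 in Mixed (adjusted p = 0.111), and Plk2 of -0.47 in C57 (adjusted p = 0.0889), none of them called.

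Trp53inp1, whose product promotes p53 phosphorylation and autophagy, was the most variable of the 10 in both WT groups, with an SD of 39.0% of the mean in C57 WT and 33.7% in Mixed WT. It was at 45.7, 66.7, 43.6, 72.9 and 23.6 TPM in C57 WT and from 32.5 to 82.1 TPM (median 61.1) in C57 Het. In Mixed WT it was at 52.3, 58.1, 55.3, 67.2 and 21.9 TPM, and in Mixed Het from 28.1 to 64.4 TPM (median 47.4). In both WT groups replicate 5 lay far below the others, and the genotypes overlapped widely. The log2 difference was 0.28 (95% interval -0.32 to 0.88, limma adjusted p = 0.472) in C57 and -0.08 (interval -0.68 to 0.53, adjusted p = 0.851) in Mixed, and both intervals span changes in either direction.

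Among the genes tied to cell death, Bbc3 fell in both backgrounds. BBC3 (PUMA) is a BH3-only protein that frees BAX and BAK to permeabilise mitochondria. Its level was 54.02, 48.7, 37.1, 50.7 and 40.5 TPM in C57 WT and ran from 21.6 to 38.7 TPM (median 27.6) in C57 Het, where 1 Het library lay above the lowest WT library. In Mixed it was 49.5, 55.9, 57.9, 62.5 and 31.7 TPM in WT and 23.1 to 32.9 TPM (median 28.1) in Het, where WT replicate 5 fell inside the Het range. The ratio of means was 0.613 in C57 and 0.552 in Mixed. On C57 the log2 difference came to -0.70 (SE 0.16, limma adjusted p = 0.00153), on Mixed to -0.81 (SE 0.16, adjusted p = 0.000255), with two-sided exact permutation p = 0.00649 in each. Bbc3 ranked 3rd and 2nd of the 10 by mean TPM in C57 WT and Mixed WT, and 9th in both Het groups. It was -0.67 and -0.73 without the 3 libraries of high mitochondrial share, called in both. With that share as a covariate it was -0.55 in C57 and missed the threshold (adjusted p = 0.0526), and -0.60 in Mixed (adjusted p = 0.0431).

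Bax encodes the pore-forming effector that BBC3 acts through. In C57 it was at 54.5, 39.3, 40.5, 44.1 and 51.5 TPM in WT and from 28.6 to 36.1 TPM (median 32.6) in Het, without overlap, a log2 difference of -0.49 (SE 0.09, limma adjusted p = 0.000403, exact permutation p = 0.00216). In Mixed it was at 38.1, 36.7, 38.0, 35.7 and 39.7 TPM in WT and from 28.5 to 37.7 TPM (median 36.3) in Het, with overlap, a difference of -0.13 (95% interval -0.32 to 0.06, adjusted p = 0.264). Under median-of-ratios scaling Bax was called lower in Mixed too, with the values given above. The interaction was 0.36 (SE 0.13) and did not pass (adjusted p = 0.0937). Of the WT libraries on C57, the 2 with a high mitochondrial share had the highest Bax values, and without the 3 such libraries the C57 difference was -0.34 (adjusted p = 0.0120).

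Phlda3, whose pleckstrin-homology domain competes with AKT for membrane lipids, was the least abundant of the 10 and the only one with a called interaction. It was at 7.21, 5.87, 5.74, 6.95 and 7.57 TPM in C57 WT and from 4.80 to 10.7 TPM (median 5.71) in C57 Het, a log2 difference of -0.06 (95% interval -0.44 to 0.31, limma adjusted p = 0.813). In Mixed WT it was at 2.45, 4.95, 3.89, 2.93 and 4.19 TPM, and in Mixed Het from 4.92 to 11.7 TPM (median 7.73). All Mixed Het mice lay above all Mixed WT mice except that WT replicate 2 (4.95 TPM) was just above the lowest Het mouse (4.92 TPM). The difference was 0.92 (SE 0.18, adjusted p = 0.000359, exact permutation p = 0.00649), a ratio of means of 2.15. The interaction was 0.98 (SE 0.26, adjusted p = 0.0254), where 7.36% of all genes passed, 4.62% with a positive value and 2.74% with a negative one. It was 0.84 without the 3 libraries of high mitochondrial share and not called (adjusted p = 0.148), while the Mixed difference of 0.86 was (adjusted p = 0.00207).

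Between backgrounds, 1 of the 10 genes was called in WT and 1 in Het, which does not show that the others were equal. In WT, Bax was at -0.27 (limma adjusted p = 0.0745) and Btg2 at 0.48 (adjusted p = 0.128), neither of them called. In WT mice Phlda3 was lower in Mixed than in C57 by 0.73 log2 units (SE 0.19, limma adjusted p = 0.0148), with no overlap and an exact permutation p of 0.00794, the smallest that 252 splits allow. With the 3 libraries named above left out it was -0.59 and was not called (adjusted p = 0.192). It was the only one of the 10 called between backgrounds in WT, where 11.3% of all genes were (6.30% higher and 4.99% lower) and 6.12% did not overlap. In Het mice the one called gene was Plk2, higher in Mixed by 0.57 (SE 0.15, adjusted p = 0.0104) with no overlap, against 20.5% of all genes called (13.3% higher and 7.13% lower) and 9.85% without overlap. These comparisons share their WT and Het libraries with the genotype comparisons and are not separate evidence.

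Like Phlda3, several markers of immune and mesenchymal cells were called higher in Mixed Het than in Mixed WT. Mean Phlda3 was 7.90 TPM in Mixed Het, 6.53 in C57 Het, 6.67 in C57 WT and lowest in Mixed WT, at 3.68. Between Mixed Het and C57 Het it was not called (0.25, SE 0.17, limma adjusted p = 0.341). The summed TPM of 7 immune genes (Ptprc, Cd68, Cd14, Lyz2, Cd74, Laptm5, Tyrobp) was between 173 and 351 in Mixed Het, against 118 to 171 in Mixed WT, 126 to 192 in C57 WT and 116 to 155 in C57 Het, and 4 of the 6 tested (Cd68, Lyz2, Cd74, Laptm5) were called higher in Mixed Het. Ptprc, the pan-leukocyte marker, was between 0.624 and 1.05 TPM in Mixed Het and did not pass the filter on low values. The sum of 6 mesenchymal genes was between 56.9 and 347 in Mixed Het and between 30.6 and 59.8 in Mixed WT, and 4 of the 5 tested (Col1a1, Col1a2, Col3a1, Dcn) were called higher. Pdgfra, a mesenchymal marker, reached at most 2.06 TPM. The interaction was called, with a positive value as for Phlda3, for Cd68, Cd74, Laptm5, Tyrobp, Col1a1, Col1a2 and Col3a1. The comparisons between backgrounds differed from those of Phlda3. In Het mice all 6 immune and all 5 mesenchymal genes tested were called higher in Mixed (13.3% of all genes were), and Phlda3 was not. In WT mice 1 of the 6 immune genes (Cd68, lower in Mixed) and 0 of the 5 mesenchymal genes were called, whereas Phlda3 was called lower. The part of these cells in the Phlda3 level was not tested.

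Over all other genes tested the pattern most like that of Phlda3 was sought in 3 log2 differences (Het minus WT in C57, Het minus WT in Mixed, and Mixed minus C57 in WT). The closest were Depp1, Slc16a11 and Fxyd7, with root mean square differences of 0.069, 0.092 and 0.096 from Phlda3. Depp1 had differences of -0.09, 0.80 and -0.75, Slc16a11 of 0.06, 0.82 and -0.74, and Fxyd7 of -0.19, 1.03 and -0.73. Slc16a11 encodes a monocarboxylate transporter and Fxyd7 a regulator of the sodium pump.

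**Figure D3:**
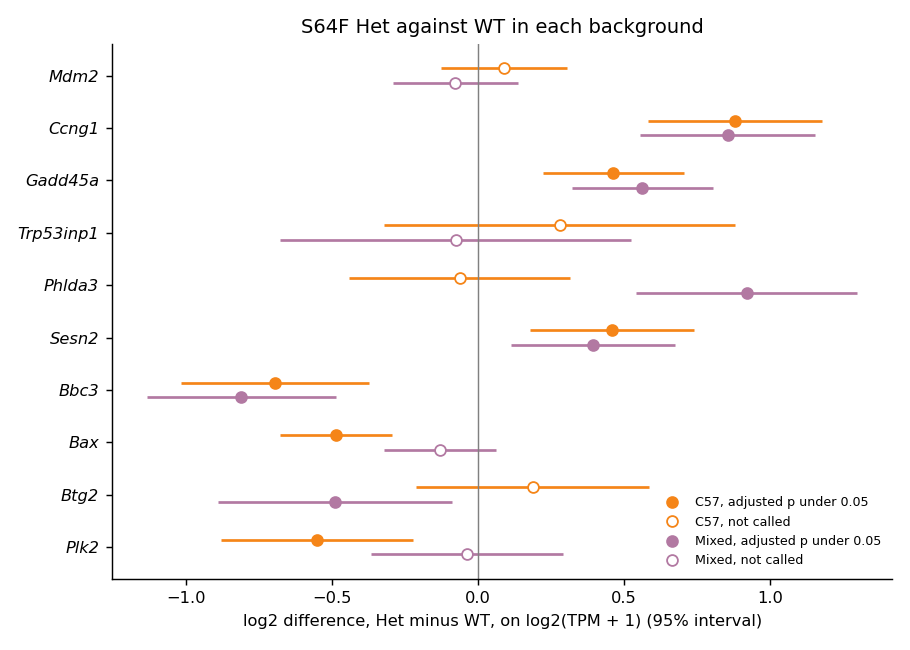
Log2 difference, Het minus WT, of each of the 10 genes on the C57 and the Mixed background (horizontal axis, log2(TPM + 1) units), with 95% intervals from limma and filled points where the adjusted p was under 0.05. Ccng1, Gadd45a and Sesn2 lie to the right of 0 and Bbc3 to the left in both backgrounds, while Phlda3 is at -0.06 in C57 and 0.92 in Mixed.

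The 10 genes varied within groups in no single order. C57 WT replicate 5 was the lowest of its group for 5 of the 10 genes and the highest for 2. Mixed WT replicate 5 was the lowest for 6 genes and Mixed WT replicate 2 the highest for 5, while C57 Het replicate 4 was the highest for 5. Each of these libraries was also in the middle or at the other end for some genes.

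The gene for p53 itself and its regulators were a list of 17 genes, 15 of which were tested, with median log2 differences of 0.21 in C57 and 0.01 in Mixed. Trp53 averaged 21.2 ± 2.85 TPM (SD) in the 5 WT and 19.99 ± 1.497 TPM in the 6 Het mice on C57, a log2 difference of -0.07 (limma adjusted p = 0.560). In Mixed it was at 18.1 ± 1.60 TPM in WT and 23.3 ± 2.96 TPM in Het, without overlap, a rise of 0.34 (SE 0.09, adjusted p = 0.00428). The interaction of 0.41 fell just outside the threshold (adjusted p = 0.0510). p53 is controlled mainly through protein stability, which was not measured. On C57, 5 of the 15 passed (33.3%, against 38.0% of all genes), each of them higher: Hipk2, a kinase of p53, by 0.51, Atm by 0.46, the acetyltransferase gene Ep300 by 0.43, and the ubiquitin ligase genes Cop1 by 0.28 and Rchy1 by 0.21. Without the 3 libraries of high mitochondrial share none of these 5 was called, with adjusted p from 0.0763 for Hipk2 to 0.221 for Atm, and Kat5 was not called in Mixed (adjusted p = 0.0657). In Mixed 3 of the 15 were called, where 44.1% of all genes were, with Trp53 higher and Atm (-0.51) and the acetyltransferase gene Kat5 (-0.28) lower. Atm, the kinase that signals double-strand breaks, thus had differences of opposite sign, and its interaction passed (-0.97, SE 0.24, adjusted p = 0.0187).

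Of 30 other p53 targets, 29 were tested and also went both ways. In C57, 15 were called (51.7%, against 38.0% of all genes), 10 higher and 5 lower, and in Mixed 11 (37.9%, against 44.1%), 7 higher and 4 lower. Their median log2 differences were 0.10 and 0.20, against 0.08 and 0.10 over all genes. Cdkn1a, the cell-cycle inhibitor p21, averaged 29.8 ± 4.65 TPM in WT and 56.7 ± 5.27 TPM in Het islets on C57, and 44.5 ± 12.3 and 72.3 ± 6.05 TPM on Mixed, with no overlap in either background. Its log2 differences were 0.91 (limma adjusted p = 9.07e-05) and 0.74 (adjusted p = 0.000407). Perp, a membrane protein gene tied to p53-dependent death, rose by 0.97 on C57 and by 0.50 on Mixed. The nuclease gene Aen rose by 0.67 and 0.69, and Rps27l by 0.25 and 0.69. Ephx1, an epoxide hydrolase gene, rose by 0.34 in C57 and 1.05 in Mixed. Lower in C57 were Ier5 (-1.06), Ddit4 (-0.62), Fdxr (-0.61), Ddb2 (-0.50) and Pmaip1 (-0.48), of which Ddb2 recognises ultraviolet lesions and Pmaip1 encodes NOXA, like BBC3 a BH3-only protein. Lower in Mixed were Plk3 (-1.07), Ckap2 (-0.84), Ier5 (-0.66) and Ddb2 (-0.44). Without the 3 libraries of high mitochondrial share, Rps27l, Ddb2, Pmaip1 and Ddit4 were no longer called in C57 (limma adjusted p from 0.0630 to 0.179).

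DNA damage signalling and repair genes numbered 26, all tested. In C57, 10 were called (38.5%, against 38.0% of all genes), 8 higher and 2 lower, and in Mixed 11 (42.3%, against 44.1%), 9 higher and 2 lower, so the shares were near those of all genes. The medians were 0.15 and 0.19. The ligase gene Lig4 rose by 0.51 on C57 and by 0.66 on Mixed, the nuclease gene Mre11a by 0.54 and 0.36, and the abasic-site endonuclease gene Apex1 by 0.33 and 0.28. Xrcc5, which encodes Ku80, rose by 0.47 in C57. The glycosylase gene Ogg1 and the excision repair gene Xpa rose in Mixed, by 0.46 and 0.43. Lower were Rnf8 in both backgrounds (-0.44 and -0.55), Xrcc1 in C57 (-0.34) and Xrcc6 in Mixed (-0.35). The C57 calls of Lig4 (limma adjusted p = 0.0877), Xrcc1 (0.114) and Rnf8 (0.149) were lost without the 3 libraries of high mitochondrial share.

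Family relatives of the 10 numbered 23, of which 22 were tested, and 7 were called in C57 (31.8%, against 38.0% of all genes, 4 higher and 3 lower) and 12 in Mixed (54.5%, against 44.1%, 9 higher and 3 lower), with medians of 0.18 and 0.10. Relatives did not always share the direction of the member. Gadd45b rose by 1.02 in Mixed, whereas Gadd45g, at 409 ± 112 TPM in C57 WT more abundant than Gadd45a, fell in both backgrounds (-0.62 and -0.77). Among the relatives higher in C57, the antiproliferative gene Btg3 rose by 0.73. Sesn3 rose in C57 by 0.73 and had a difference of -0.04 in Mixed, with a called interaction (-0.78, SE 0.16, limma adjusted p = 0.00840). Among the BCL2 family, the survival gene Bcl2l1 rose by 0.48 on C57 and by 0.50 on Mixed, and Bcl2 rose by 0.71 in Mixed, from 1.61 ± 0.045 to 3.29 ± 0.44 TPM. The BH3-only gene Bad rose by 0.25 and 0.62, in the opposite direction to Bbc3, and the effector relative Bok fell in C57 (-0.87). In Mixed the BH3-only genes Bmf (0.53) and Bid (0.40) and the effector gene Bak1 (0.29) were called higher too. The other BH3-only genes of the list and Bok (-0.39, limma adjusted p = 0.0508) were not called there. Lower in C57 were also Phlda1 (-0.47), and lower in Mixed were Tob1 (-0.44) and Trp53inp2 (-0.37). Without the 3 libraries named above, Gadd45g (-0.34, limma adjusted p = 0.165) and Phlda1 (-0.40, adjusted p = 0.162) were not called in C57.

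**Figure D4:**
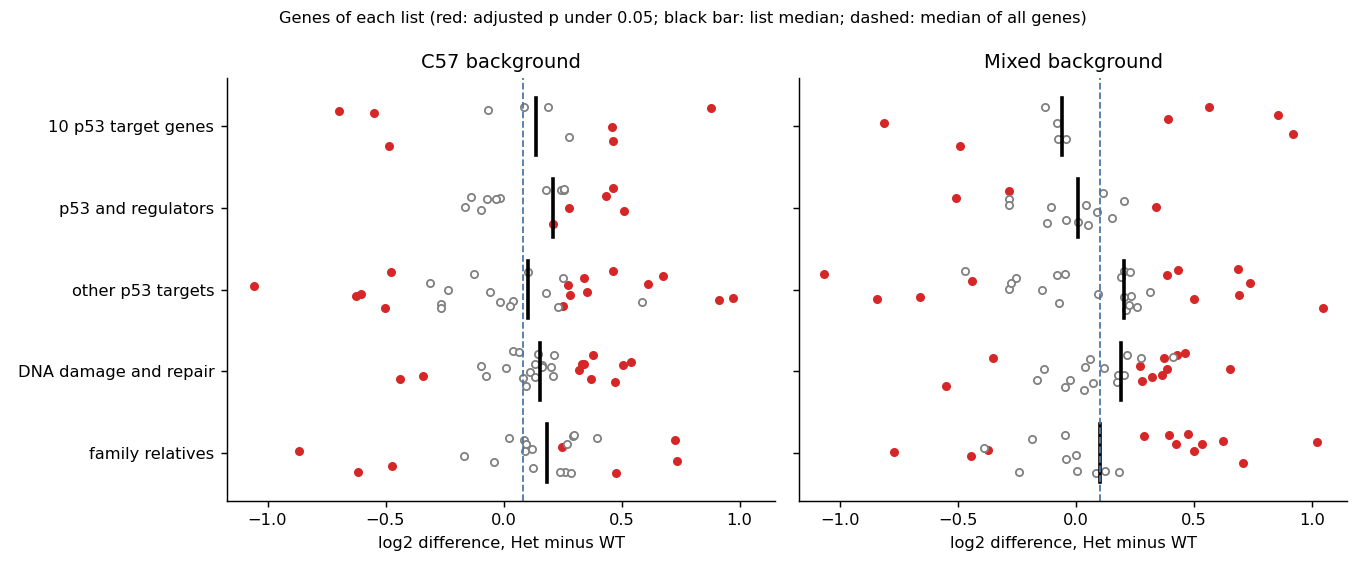
Log2 difference, Het minus WT, of every tested gene of the 5 lists (horizontal axis), on the C57 background (left) and the Mixed background (right), with red points for an adjusted p under 0.05, black bars for list medians and a dashed line for the median of all genes. Each list has called genes on both sides of 0 apart from p53 and its regulators in C57, where the 5 called genes are higher.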

How the data were processed

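The authors deposited TPM values for 57010 genes in 22 islet libraries, and each column summed to 1000000, so sequencing depth is unknown. The submitters' processing notes name STAR 2.7.10b, MultiQC 1.7 and the mm39 build. The counting tool and annotation are not given in the sources used here. All 22 value columns were used. The series gives an age of 5.5 weeks and the column names 5 to 6 weeks.

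The 16756 genes that reached a TPM of 1 in 5 or more libraries were fitted on log2(TPM + 1) with limma 3.58.1 in R 4.3.3 (trended eBayes, all 4 groups in 1 fit), with Benjamini-Hochberg adjustment over all genes and a threshold of 0.05. Differences on this scale understate the change of low genes. Two-sided exact permutation tests over mice were run per gene. The fit was tested on simulated data. Limma p-values set each group difference against the spread between mice within groups, estimated over all 4 groups. Whether mice of a group were independent in litter or isolation day is not known. Mice of a group carry consecutive library numbers, so that library order and group cannot be told apart.

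The 10 genes and the lists were chosen with earlier results of these data known. Besides the 10, named genes are Trp53, Cdkn1a and Mafa, at most 6 per list by smallest adjusted p in a genotype comparison, every list gene in a count of 5 or fewer, and the 3 most like Phlda3. Bmf, Bid and Bak1 were named to complete the called genes of the BCL2 family. Marker genes were named beside a count of 5 or fewer. Leaving out the 3 libraries over 7% mitochondrial share, and that share as a covariate, were chosen after seeing the data. Some marker lists are not reported here.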

Additional observations from a re-analysis of the deposited data

Results flagged for a closer look

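Among the 40 combinations of the 10 genes and 4 groups, 1 library stood apart. Trp53inp1 in Mixed WT replicate 5 was at 21.9 TPM, and its gap to the next library was 0.774 of the group's range, above Dixon's 95% critical value for 5 samples. Chance alone sets apart about 1 in 20 such groups.

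The Het against WT difference itself differed between backgrounds, by limma's interaction term (Mixed minus C57, log2 units), for Phlda3 and for 8 other named genes of the pathway and family lists. By list, 1 of 15 tested genes of p53 and its regulators and 3 of 29 other p53 targets were called. Of the repair genes 1 of 26 was called, and of the family relatives 3 of 22, where 7.36% of all genes were. The interaction values were 0.98 for Phlda3 (adjusted p = 0.0254), -0.97 for Atm (0.0187), 0.70 for Ephx1 (0.0121), 0.44 for Rps27l (0.0387), -1.65 for Plk3 (0.0210), 0.35 for Ogg1 (0.0453), 0.38 for Bad (0.0246), -0.78 for Sesn3 (0.00840) and -0.50 for Trp53inp2 (0.0434). Without the 3 libraries of high mitochondrial share, the interaction was called for Atm (-0.73, adjusted p = 0.0300) and Sesn3 (-0.58, adjusted p = 0.0417), and the other 7 missed the threshold with adjusted p between 0.0690 for Ephx1 and 0.227 for Trp53inp2.

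The same term was called for 7 marker genes named beside Phlda3, 4 of the 6 immune and 3 of the 5 mesenchymal genes tested. It was 1.18 for Cd68 (limma adjusted p = 0.0118), 0.86 for Cd74 (0.0342), 0.76 for Laptm5 (0.00765) and 0.775 for Tyrobp (0.0485) among the immune genes. Among the mesenchymal genes it was 2.04 for Col1a1 (0.0246), 1.45 for Col1a2 (0.0279) and 1.61 for Col3a1 (0.0474).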

How the results depend on the processing

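Of the 10 genes, Ccng1 and Bbc3 kept both genotype calls except with the mitochondrial share as a covariate, where Ccng1 in Mixed (0.37, limma adjusted p = 0.0532) and Bbc3 in C57 (-0.55, adjusted p = 0.0526) missed the threshold, and Gadd45a kept both under every alternative run. Among 85 values of the other named genes, without Bmf, Bid and Bak1, 29 lost their call with the mitochondrial covariate and 20 with the acinar covariate. Calls were lost for 11 with median-of-ratios scaling, 10 with quantile normalization and 13 with a total without abundant genes. Each of these runs gained at most 2 calls. A call lost under the mitochondrial covariate cannot be told apart from a loss of genotype effect. The cause of these changes and of those below was not tested. No paired analysis was possible because the labels give no number that links mice across groups. Depth cannot be judged from TPM.

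Genes called in C57 Het numbered 3546 with the acinar covariate, 3859 without the 3 libraries of high mitochondrial share and 2383 with that share as a covariate, which left 3 of the 10 genes called (Ccng1, Gadd45a and Bax). Mixed Het gave 3866 with the share as a covariate. Between backgrounds, WT mice gave 1251 at a mean TPM of at least 5, 831 from these samples alone and 797 without the 3 libraries, with 2 of the 10 called under quantile normalization or a total without abundant genes and 0 with the acinar covariate or without the 3 libraries. Het mice gave 2223 at that minimum and 6572 with arrayWeights, and 2 of the 10 with arrayWeights or the mitochondrial covariate. The interaction gave 714 with no filter, 2628 with arrayWeights, 419 without the 3 libraries and 2282 with the mitochondrial covariate, with 0, 2, 0 and 2 of the 10 called.

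Leaving out 1 library at a time gave 771 (without Mixed Het replicate 5) to 1775 interaction genes, 1 to 2 of the 10 in the interaction (Bax joined without C57 WT replicate 2 or Mixed Het replicate 3, and Plk2 without C57 WT replicate 3) and 1 to 3 between WT backgrounds (3 without C57 WT replicate 2). Signs turned only in values that were not called, apart from Sesn2 in Mixed (-0.0089 with the mitochondrial covariate). Under that covariate Bax in Mixed was 0.016, Btg2 in C57 -0.044 and Plk2 in Mixed 0.26. Without the 3 libraries, Mdm2 in C57 was -0.042, Trp53inp1 -0.056 in C57, 0.044 in Mixed and 0.10 in the interaction, Phlda3 in C57 0.027, Plk2 in Mixed 0.010 and the Ccng1 interaction 0.16. Mdm2 in C57 was -0.027, -0.050 and -0.022 under median-of-ratios, quantile and abundant-gene scaling. With arrayWeights the interaction was 0.13 for Ccng1 and -0.0063 for Gadd45a, and Trp53 in C57 was 9.0e-06. With the acinar covariate Trp53inp1 in Mixed was 0.025, Phlda3 in C57 0.091 and Plk2 in Mixed 0.019. On leaving out 1 library, values ran from -0.12 to 0.089 for the Ccng1 interaction, -0.017 to 0.14 for Mdm2 in C57, -0.20 to 0.0024 for Phlda3 in C57, -0.095 to 0.028 for Plk2 in Mixed, -0.18 to 0.044 for the Sesn2 interaction and -0.35 to 0.057 for Trp53inp1 in Mixed.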
